A study of Mus musculus with 24 samples.

Results

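The regions described here are active enhancers of mouse liver that carried TEAD in the resting tissue and took up no Myc when Myc alone was overexpressed. They were chosen by 5 measured lists: a wild-type H3K4me1 region became a member when it overlapped, by at least 1 bp, a wild-type H3K27ac region and a wild-type TEAD peak, and overlapped neither a wild-type H3K4me3 region nor a Myc peak of tet-Myc livers. Of 21671 wild-type H3K4me1 regions, 1178 were members (5.44%). They made up 19.8% of the 5956 active distal regions, that is the H3K4me1 regions with H3K27ac and without H3K4me3 in wild-type liver. The other active distal regions fell into 2636 with TEAD and Myc, 827 with Myc and no TEAD, and 1315 with neither.

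Livers came from mice carrying R26-rtTA, a doxycycline-dependent transactivator expressed from the Rosa26 locus, with a tet-Myc transgene, a tet-YAP transgene encoding an activated YAP mutant, both (tet-Myc/YAP), or neither (wild-type), all of them fed doxycycline for 2 days. The wild-type animals thus carried the transactivator and received the drug as well. Chromatin immunoprecipitation with sequencing (ChIP-seq) was performed on whole liver of all 4 genotypes for TEAD, Myc, H3K27ac, H3K4me3 and RNA polymerase II, and the lists used here for YAP are those of the 2 genotypes with its transgene, and for H3K4me1 that of wild-type. The study asked how induced Myc and YAP meet on chromatin.

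Enhancers are regulatory regions away from promoters. They are flanked by nucleosomes with H3K4me1, gain H3K27ac when active, and lack the H3K4me3 of promoters. TEAD proteins are the DNA-binding partners of YAP, a coactivator without a DNA-binding domain. The Hippo kinase pathway keeps YAP out of the nucleus, and in liver that pathway restrains organ size. Myc binds E-box motifs in chromatin that is already open, at promoters and, when abundant, at enhancers.

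Each antibody and genotype was 1 library, so there is no replicate error and no p-value was computed. Shares carry 95% Wilson intervals and their differences 95% Newcombe intervals, in percentage points, which cover the counting of regions only and not the variation between livers. Between 16.9 and 50.6 M ChIP tags stood behind each narrow peak list, while the depth of the histone mark libraries is unknown. The lists differed in length, the fragment size estimated for YAP in tet-YAP (56 bp) and for Myc in wild-type (51 bp) was far below the 287 to 364 bp of the other lists, and the YAP control in tet-Myc/YAP held 167 M tags. A change between genotypes therefore cannot be told apart from a change between libraries, and the firmest comparisons are those of enhancer classes within a list. In whole liver, more cells with a bound site and more binding per cell cannot be told apart either.

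Within the lists that chose them, the members were moderate TEAD sites in ordinary enhancers. Their median width was 4380 bp, with quartiles at 2754 and 7132 bp, and the median rank of their H3K4me1 score among all H3K4me1 regions was 45.1%. TEAD and Myc enhancers had a median width of 5830 bp and a median rank of 65.6%. In 1023 members (86.8%) there was a single wild-type TEAD peak, in 136 there were 2 and in 19 there were 3 or more, 1354 peaks in all, or 4.05% of the wild-type TEAD list. The highest TEAD fold enrichment over control per region had a median of 5.79, equal to the median of that list, and ranged from 2.80 to 47.6. In TEAD and Myc enhancers its median was 6.14. The TEAD summit lay in the inner 50% of the member for 913 of the 1354 peaks (67.4%). H3K27ac covered 776 members (65.9%) wholly and at least 50% of 1129 (95.8%).

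Most members lay far from promoter chromatin. The distance to the nearest wild-type H3K4me3 region had a median of 26654 bp, against 24782 bp for TEAD and Myc enhancers, and exceeded 10 kb for 906 members (76.9%) and 100 kb for 208 (17.7%). For 206 members (17.5%), however, the wild-type H3K27ac region they overlapped also touched wild-type H3K4me3, against 19.7% of TEAD and Myc enhancers. The members were also scattered, with a median of 390364 bp to the next member, although 212 (18.0%) had another within 50 kb and are not independent of it. By chromosome they made up from 16.2% of active distal regions on chromosome 19 to 25% of the 48 on chromosome X.

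The rule has thresholds, and the members nearest to them were few. The smallest TEAD overlap inside the set was 9 bp at chr11:53925193-53929550, and only 3 members shared under 100 bp with a TEAD peak. The nearest Myc peak of tet-Myc to any member lay 2054 bp away, at chr16:42950302-42978204, and 338 members (28.7%) had one within 10 kb. Just outside, the smallest Myc overlap that kept a region out was 329 bp, at chr7:52279257-52282831, and the nearest region left out for want of TEAD was 159 bp from a wild-type TEAD peak, at chr8:37425272-37428745. Called strength was nearer the threshold than distance was: in 408 members (34.6%) the strongest wild-type TEAD peak had a −log10 q under 10, and in 433 TEAD and Myc enhancers (16.4%) the Myc peak did.

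**Figure D1:**
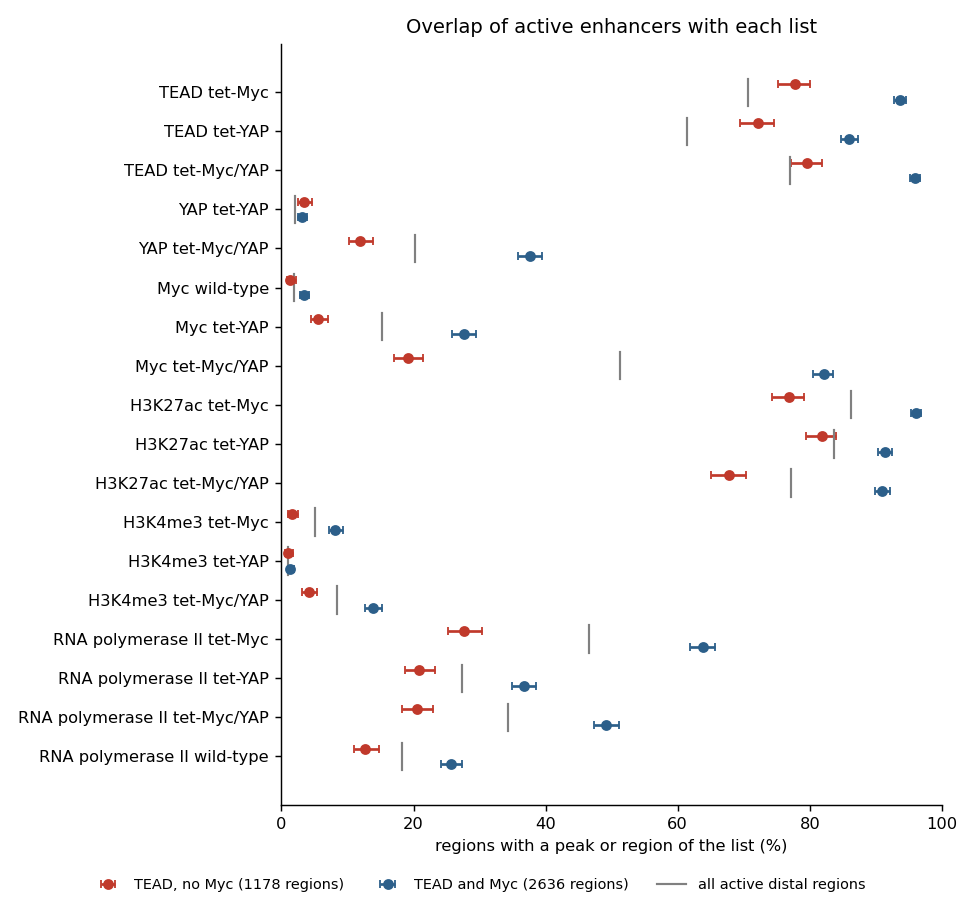
Share of regions (horizontal axis, %) that overlap each list (rows) for the TEAD, no Myc enhancers (red, upper point of each row) and the TEAD and Myc enhancers (blue, lower point). Bars are 95% Wilson intervals and grey ticks give all 5956 active distal regions. The red points lie left of the blue ones in every row except YAP in tet-YAP, where 3.40% and 3.15% overlap.

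TEAD was called again at most members when the transgenes were switched on, but at a smaller share than at enhancers that also bound Myc. In tet-Myc a TEAD peak was called at 915 members (77.7%, 75.2 to 80.0). In tet-YAP it was called at 849 (72.1%, 69.4 to 74.6) and in tet-Myc/YAP at 938 (79.6%, 77.2 to 81.8). The shares of all active distal regions with TEAD were 70.6%, 61.4% and 77.0% in the same order of genotypes, a background that includes regions chosen for lacking wild-type TEAD. Of these, enhancers with Myc and no TEAD gave 54.3%, 35.6% and 72.6%, and regions with neither factor 28.2%, 18.9% and 39.3%. In tet-Myc/YAP, members were thus only 7.08 points (3.29 to 10.9) above enhancers with Myc and no TEAD. Among TEAD and Myc enhancers, TEAD was called in 93.7% in tet-Myc, 86.0% in tet-YAP and 96.0% of cases in tet-Myc/YAP. Members were thus lower by 16.0 points (interval of the difference −18.6 to −13.5), 14.0 points (−16.9 to −11.1) and 16.4 points (−18.9 to −14.0), and the difference lay between −15.8 and −13.0 points when both classes were given the widths of the members. It was present in every width quartile of all 3 lists, from −10.7 to −17.9 points. The order of the genotypes depended on list length. With each TEAD list cut to its strongest 32486 peaks, tet-Myc gave 65.4% of members, tet-YAP 72.1% and tet-Myc/YAP 60.6%.

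At the level of single regions, 697 members (59.2%) kept TEAD in all 3 transgenic livers, 236 in 2 of them and 139 in 1, and 106 had none. Of TEAD and Myc enhancers, 82.2% kept TEAD in all 3 and 1.33% in none. Members without TEAD in any transgenic liver had the weaker TEAD calls in wild-type. Their highest wild-type TEAD fold enrichment was 3.10 to 7.01 with a median of 4.91, against a median of 6.49 and a maximum of 47.6 in members that kept TEAD throughout. The interquartile ranges, 4.38 to 5.49 and 5.28 to 8.24, overlapped only narrowly. Every member entered the set by a call in this wild-type list. Whether its weak calls would recur in another wild-type library was not tested, so the relation is a description only. The 697 members with TEAD in all livers stood above the middle of each list, at a median rank of 70.7% of TEAD peaks by fold enrichment in tet-Myc, 66.7% in tet-YAP, 73.8% in tet-Myc/YAP and 62.7% in wild-type. They were picked for a call in every list and ranked by their strongest peak, which favours high ranks, so these values are a description only.

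**Figure D2:**
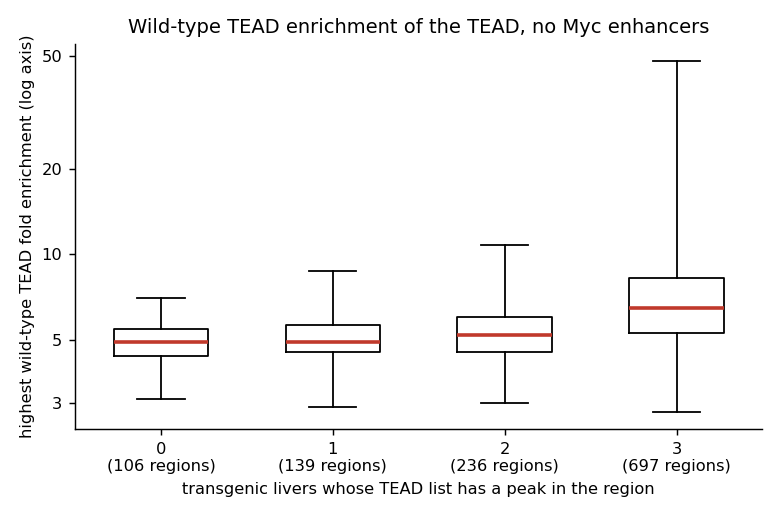
Highest wild-type TEAD fold enrichment over control of each member (vertical log axis) by the number of transgenic livers in which the member overlapped a TEAD peak (horizontal axis). Boxes give quartiles, red lines medians and whiskers the lowest and highest region. Medians are 4.91 with 0 or 1 liver, 5.20 with 2 and 6.49 with 3.

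Some TEAD peaks in members had no wild-type counterpart: 178 of 1180 (15.1%) in tet-Myc, 102 of 1016 in tet-YAP and 240 of 1265 (19.0%) in tet-Myc/YAP. The shares in TEAD and Myc enhancers were 22.4%, 15.6% and 28.4% in this order, and 36.8%, 23.6% and 44.7% over the whole lists. The order of the genotypes was that of list length, at 44220, 32486 and 52392 peaks. Since every member and every TEAD and Myc enhancer held a wild-type TEAD peak by the rule, their shares are not to be read against the whole lists.

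YAP reached only a minority of members. In tet-YAP livers, 40 members had a YAP peak (3.40%, 2.50 to 4.59), against 83 TEAD and Myc enhancers (3.15%), with 2.08% over all active distal regions. The difference was 0.247 points (−0.911 to 1.58), so the classes were not distinguishable on these counts. In the absence of wild-type TEAD, YAP was almost never called, in 1 of 827 regions with Myc alone and in 0 of 1315 with neither factor. All 40 members with YAP in tet-YAP also had TEAD in tet-YAP, whereas none of the 329 members without TEAD in tet-YAP had YAP (upper limit 1.15%). Of the 45 YAP peaks in these members, 44 overlapped a TEAD peak of the same livers.

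In tet-Myc/YAP livers, 140 members had a YAP peak (11.9%, 10.2 to 13.9), against 993 TEAD and Myc enhancers (37.7%), with 20.3% over all active distal regions. Here members were lower by 25.8 points (−28.3 to −23.1), but higher than the 1315 regions with neither factor, of which 1.83% had YAP, by 10.1 points (8.12 to 12.1). They were also above the 827 regions with Myc and no TEAD, of which 6.53% had YAP, by 5.35 points (2.79 to 7.83). The deficit against TEAD and Myc enhancers was −24.1 points at equal width and was found in each width quartile, from −16.2 points in the narrowest to −29.6 in the widest. It was −22.8 points when both classes were given the wild-type TEAD enrichment of the members, an alternative chosen after seeing the data. Its size depended on how many YAP peaks were counted. The tet-Myc/YAP list held 11719 YAP peaks and the tet-YAP list 1328. With the tet-Myc/YAP list cut to its strongest 1328 peaks, 16 members (1.36%) and 60 TEAD and Myc enhancers (2.28%) had YAP, a difference of −0.918 points (−1.74 to 0.0587) whose interval includes 0. Both classes fell to low shares in this cut, which leaves little room for a difference, so it cannot tell which peaks carried the deficit. At a −log10 q of at least 10 for every narrow list, the difference was −13.7 points. This cutoff also changed which regions fell in each class.

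**Figure D3:**
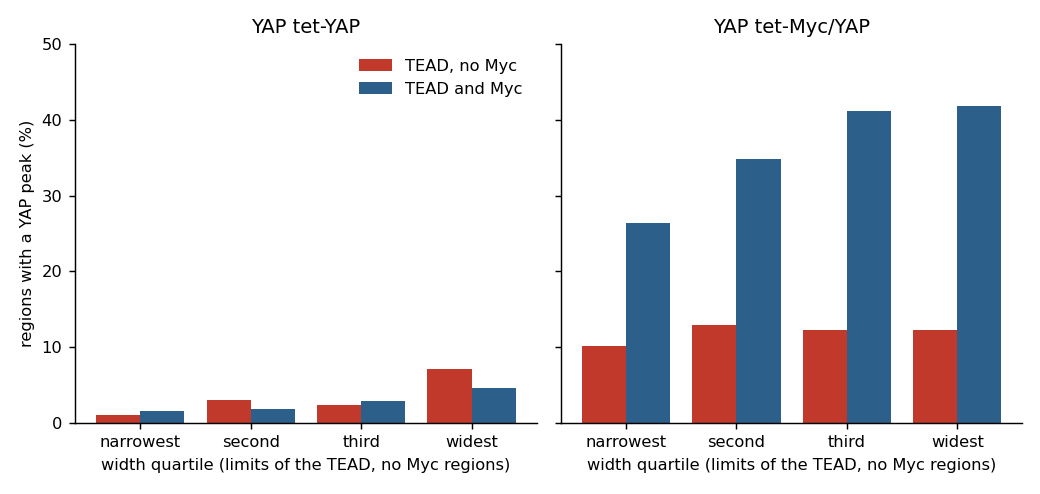
Share of regions with a YAP peak (vertical axis, %) in tet-YAP (left panel) and tet-Myc/YAP (right panel), by width quartile (horizontal axis) for TEAD, no Myc enhancers (red) and TEAD and Myc enhancers (blue). In tet-Myc/YAP the red bars stay between 10.2% and 12.9% and the blue bars lie between 26.4% and 41.8%.

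The members with YAP fell into 23 bound in both livers, 17 in tet-YAP alone and 117 in tet-Myc/YAP alone. The 23 shared sites had the highest median wild-type TEAD fold enrichment, 15.0, against 8.33 for YAP in tet-YAP alone, 7 for tet-Myc/YAP alone and 5.61 for the 1021 members with no YAP. The groups overlapped: the 23 ranged from 5.69 to 47.6, and members with no YAP reached 26.2. Of the YAP members of tet-YAP, 57.5% had YAP again in tet-Myc/YAP, against 79.5% of the TEAD and Myc enhancers with YAP in tet-YAP, a difference of −22.0 points (−39.0 to −4.88) on 40 and 83 regions. In tet-Myc/YAP, YAP was mostly found with TEAD as well. Of its 140 members, 131 (73 with TEAD only and 58 with TEAD and Myc) had TEAD in the same livers, and 9 had neither factor. TEAD was called at 79.6% of all members there. YAP was called at 14.0% of the 938 members with TEAD and at 3.75% of the 240 without. Of the 147 YAP peaks in members, 132 (89.8%, 83.8 to 93.7) overlapped a TEAD peak. In tet-YAP the share was 97.8% (88.4 to 99.6), and the intervals overlapped.

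Myc was called at some members when YAP was induced with it. By the rule no member had Myc in tet-Myc. In tet-Myc/YAP, 226 members did (19.2%, 17.0 to 21.5), against 6.92% of the regions with neither factor, which the rule kept free of Myc in tet-Myc in the same way, a difference of 12.3 points (9.65 to 14.9). The shares of 82.1% in TEAD and Myc enhancers and 51.3% over all active distal regions include regions chosen for Myc in tet-Myc, so they are a description and no independent comparison, and the same holds for the other Myc lists. These were low peaks: their median fold enrichment of 7.33 ranked at 24.5% of the tet-Myc/YAP Myc list, while the peaks at TEAD and Myc enhancers had a median of 10.8 and a rank of 52.6%. With that list cut to its strongest 4775 peaks, 2 members (0.170%) and 239 TEAD and Myc enhancers (9.07%) had Myc, so both classes fell and the difference shrank to −8.90 points, against −62.9 points with the whole list. In tet-YAP, where no Myc transgene is present, 66 members had Myc (5.60%), against 1.06% of the regions with neither factor (a difference of 4.54 points, 3.16 to 6.06), 27.6% of TEAD and Myc enhancers and 15.3% of all active distal regions. These were weak peaks too, since the share of members fell to 1.49% at a −log10 q of at least 10 and to 0.340% in lists of equal length. The first of these cutoffs also changed which regions were members. Of the 66, 40 had Myc in tet-Myc/YAP too. In wild-type, 16 members had a Myc peak (1.36%), against 3.45% of TEAD and Myc enhancers and a background of 1.95%. In none of these 3 lists did 914 members (77.6%) have Myc. This absence is not particular to members, since regions with neither factor had Myc less often in each of the 3 lists, with 0.228% in wild-type.

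Where Myc did appear in tet-Myc/YAP, YAP was more frequent. YAP was called in 58 of the 226 members with Myc (25.7%) and in 82 of the 952 without (8.61%), a difference of 17.1 points (11.4 to 23.3). TEAD and Myc enhancers showed a difference of 26.3 points (22.2 to 30.0), with 42.4% and 16.1%. The members with Myc had similar widths (median 4507 bp, against 4358 bp without) but higher wild-type TEAD fold enrichment (6.76, against 5.61), and the part of TEAD strength in the difference was not tested. The difference was absent from the narrowest quartile, where YAP was called in 4 of 42 members with Myc and 26 of 253 without. It was 18.1, 11.8 and 34.9 points in the wider quartiles, with intervals above 0. The YAP and Myc peaks did not always coincide: of the 147 YAP peaks in members, 53 (36.1%) overlapped a Myc peak of the same livers. In TEAD and Myc enhancers 87.8% of 1120 did, but this gap restates the choice of the classes by their Myc in tet-Myc.

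H3K27ac, carried by every member in wild-type, was missing from a larger share of members than of TEAD and Myc enhancers in all 3 transgenic livers, but from a smaller share than of regions with neither factor. In tet-Myc the mark was called at 905 members (76.8%, 74.3 to 79.1). In tet-YAP it was called at 964 (81.8%, 79.5 to 83.9) and in tet-Myc/YAP at 799 (67.8%, 65.1 to 70.4), where all active distal regions gave 86.3%, 83.6% and 77.2% in this order of genotypes. TEAD and Myc enhancers gave 96.1%, 91.4% and 91.0%. The differences were −19.3 points (−21.9 to −16.8), −9.55 points (−12.1 to −7.17) and −23.2 points (−26.1 to −20.4), and −18.8, −8.50 and −22.0 points at equal width. Regions with neither TEAD nor Myc gave 70.5%, 71.0% and 54.8%, so members were higher than these by 6.33 points (2.87 to 9.76) with Myc induced, 10.9 points (7.56 to 14.2) with YAP and 13.0 points (9.18 to 16.8) with both. In tet-YAP, members did not differ detectably from enhancers with Myc and no TEAD, 81.1% of which kept the mark, a difference of 0.697 points (−2.72 to 4.20). In tet-Myc, by contrast, members were 16.8 points below those enhancers (−19.7 to −13.8). With each H3K27ac list cut to its 17821 top-scoring regions, tet-Myc gave 62.4% of members, tet-YAP 72.2% and tet-Myc/YAP 52.0%, which is the same ranking. The differences from TEAD and Myc enhancers then widened to −29.6, −13.4 and −29.1 points in that order. This cut was chosen after seeing the data.

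The members that kept H3K27ac in all 3 transgenic livers numbered 674 (57.2%), against 85.3% of TEAD and Myc enhancers, and those that kept it in none numbered 91 (7.72%), against 1.40%. The mark was called in tet-Myc alone at 56 members (4.75%), under tet-YAP alone at 118 and in tet-Myc/YAP alone at 6 (0.509%). Over all active distal regions these shares were 4.18%, 5.39% and 0.453%. TEAD and Myc enhancers had the other order, with 2.28% for tet-Myc alone and 1.48% for tet-YAP alone, while regions with neither factor had the order of the members, with 6.92% and 11.3%. The covered share of the median member was 95.7% in tet-Myc, 100% in tet-YAP, 81.8% in tet-Myc/YAP and 100% in wild-type. Retention followed the rank of the wild-type H3K27ac score, whose median was 16.8% in members that kept the mark nowhere and 44.6% in those that kept it everywhere. The score comes from a list of the rule, and whether its low-scoring regions would recur in another wild-type library was not tested. Within quartiles of that score the deficit of members persisted in tet-Myc, from −9.64 to −22.4 points, and in tet-Myc/YAP, from −14.6 to −22.2 points, with intervals below 0. In tet-YAP it was −7.85 and −3.43 points in the upper 2 quartiles, and in the lower 2, at −5.04 and −2.79 points, the intervals included 0.

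**Figure D4:**
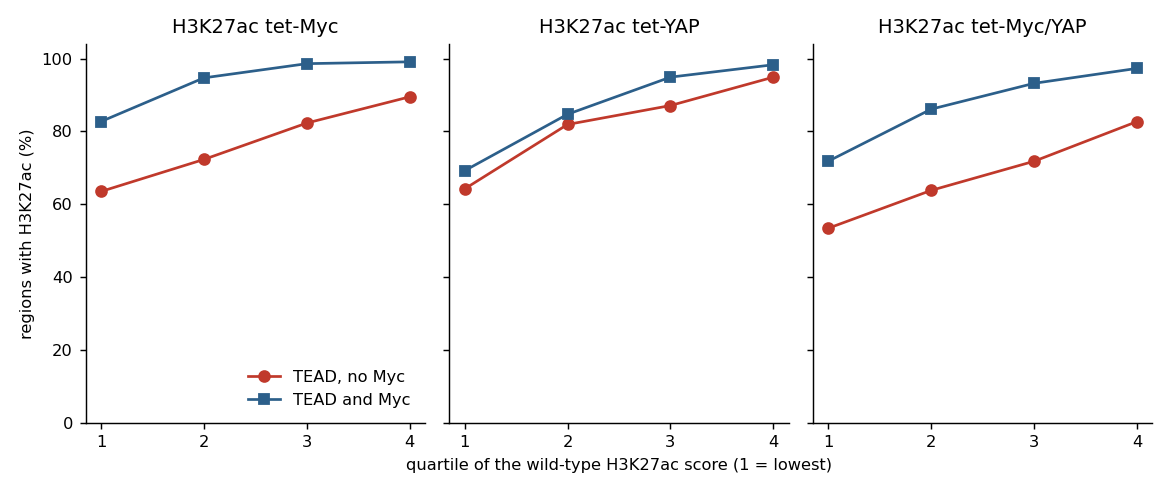
Share of regions with H3K27ac (vertical axis, %) in each transgenic liver (panels) by quartile of the wild-type H3K27ac score (horizontal axis, 1 is the lowest) for TEAD, no Myc enhancers (red circles) and TEAD and Myc enhancers (blue squares). In the lowest quartile the red points are at 63.5%, 64.2% and 53.4% and the blue points at 82.7%, 69.2% and 71.8%.

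H3K27ac and transcription factor occupancy went together within the set. In tet-Myc/YAP, H3K27ac was called in 74.2% of the 938 members with TEAD in the same livers and in 42.9% of the 240 without, a difference of 31.3 points (24.3 to 38.0). In tet-Myc the corresponding shares were 82.4% and 57.4%, and in tet-YAP 87.8% and 66.6%. Members with Myc in tet-Myc/YAP kept the mark in 93.8% of 226 cases, beside the 94.8% of TEAD and Myc enhancers with Myc, while members without Myc kept it in 61.7% of 952. Of the 40 members with YAP in tet-YAP, 39 had H3K27ac in tet-YAP (97.5%), against 81.3% of the 1138 without YAP. In tet-Myc/YAP, 85% of the 140 members with YAP had the mark, against 65.5% of those without. In each of these splits the members with the factor also had the higher median wild-type TEAD fold enrichment, from 6.05 against 5.04 for TEAD in tet-Myc/YAP to 11.4 against 5.71 for YAP in tet-YAP, and its part in the differences was not tested. The 40 members with YAP in tet-YAP were also wider (median 7626 bp, against 4333 bp without).

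H3K4me3, absent from the members in wild-type by the rule, remained rare. In tet-Myc it was called at 19 members (1.61%), in tet-YAP at 12 (1.02%) and in tet-Myc/YAP at 49 (4.16%), against 8.16%, 1.37% and 13.9% of TEAD and Myc enhancers. The backgrounds were 5.07%, 1.02% and 8.46%. Members were lower by 6.54 points (−7.79 to −5.21) in tet-Myc and by 9.76 points (−11.5 to −7.95) in tet-Myc/YAP, while in tet-YAP the interval of the difference, −1.02 to 0.496 points, included 0. Regions with neither factor gave 1.67%, 0.760% and 2.13%, and the members differed from these detectably in tet-Myc/YAP (2.03 points, 0.665 to 3.48) but not in tet-Myc (−1.09 to 0.997 points) or tet-YAP (−0.510 to 1.09 points). In tet-Myc/YAP the mark was called in 10.6% of members with Myc and in 2.63% of those without, a difference of 7.99 points (4.40 to 12.8).

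RNA polymerase II was detected at fewer members than TEAD and Myc enhancers in every genotype. In tet-Myc it was called at 326 members (27.7%, 25.2 to 30.3) and in tet-YAP at 246 (20.9%, 18.7 to 23.3). In tet-Myc/YAP it was called at 242 (20.5%, 18.3 to 22.9) and in wild-type at 150 (12.7%, 11.0 to 14.8). TEAD and Myc enhancers gave 63.8%, 36.8%, 49.2% and 25.7%, and all active distal regions 46.6%, 27.4%, 34.3% and 18.3%. The differences were −36.1 points (−39.2 to −32.9), −15.9 points (−18.8 to −12.9), −28.7 points (−31.6 to −25.6) and −12.9 points (−15.4 to −10.3). At equal width they were −31.8, −12.2, −24.3 and −9.46 points. Regions with neither factor gave 23.7%, 15.9%, 15.8% and 9.35%, and members were higher than these by between 3.38 and 4.99 points. At equal width the interval of that difference included 0 in tet-Myc (−2.06 to 4.96 points) and wild-type (−0.638 to 4.55 points), and lay just above 0 in the other two. In wild-type the difference was within counting error in the second width quartile (−3.77 points, −8.44 to 1.34). The tet-Myc, tet-YAP, tet-Myc/YAP and wild-type libraries held 50.6, 37.7, 45.8 and 20.9 M tags. With the lists cut to the 39181 peaks of the wild-type list, the shares of members were 16.3%, 17.2%, 15.1% and 12.7%, so most of the spread between genotypes went with list length.

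Polymerase was never called at 733 members (62.2%) and was called in all 4 genotypes at 87 (7.39%). It was never called at 29.0% of TEAD and Myc enhancers, 70.0% of regions with neither factor and 46.0% of all active distal regions, and was called throughout at 19.3%, 5.78% and 13.0%. Members with Myc in tet-Myc/YAP had it in 44.2% of cases and those without in 14.9%, a difference of 29.3 points (22.6 to 36.2). For TEAD and Myc enhancers the same split gave 55.5% and 20.5%. In tet-YAP, 19 of the 40 members with YAP had polymerase (47.5%), against 19.9% of those without. Polymerase in tet-YAP was called more often in wider members, from 11.5% of the narrowest quartile to 29.2% of the widest, and the part of width and of TEAD strength in this split was not tested.

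The strongest single members show how the factors combined, and positions are in the mm9 build. Named regions were the top 3 by −log10 q of a list or by width, and their values are a description. The region chr11:32504374-32508608 ranked first for wild-type TEAD and for both YAP and Myc of tet-Myc/YAP. Its TEAD fold enrichment was 76.9 in tet-Myc, 57.8 in tet-YAP, 59.7 in tet-Myc/YAP and 47.6 in wild-type. For YAP the fold enrichment was 22.3 in tet-YAP livers and 18.9 in those of tet-Myc/YAP. Myc was not called there in tet-Myc or wild-type but was in tet-YAP (8.31) and tet-Myc/YAP (26.2), on the same TEAD site, and polymerase was called in the 3 transgenic livers and not in wild-type. H3K4me3 was called there in tet-Myc/YAP only.

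The region chr9:102679352-102687065 had the strongest tet-YAP YAP peak among members and 4 wild-type TEAD peaks. YAP was called at 1 of the 4 TEAD sites, with a fold enrichment of 35.8 in tet-YAP livers and 8.39 in those of tet-Myc/YAP, and this was the site with the highest TEAD, at 63.7 in tet-Myc, 21.9 in tet-YAP, 74.5 in tet-Myc/YAP and 18.4 in wild-type. A weak Myc peak (5.55) appeared on it in tet-Myc/YAP, and polymerase was called on it in tet-YAP (7) and tet-Myc/YAP (14.1) only. H3K27ac covered the whole region in all 4 genotypes.

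**Figure D5:**
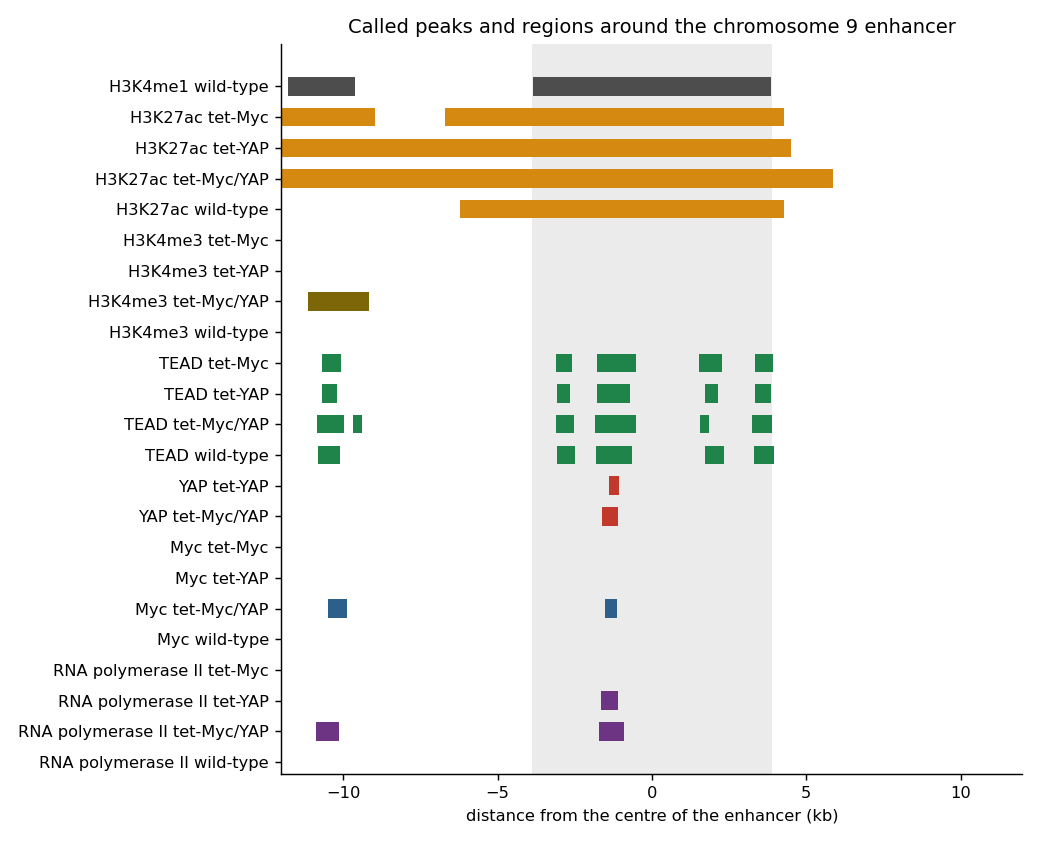
Peaks and regions of each list (rows) around the enhancer chr9:102679352-102687065, as distance from its centre (horizontal axis, kb), with bars for called intervals and grey shading for the enhancer itself. All 4 TEAD sites are called in the 4 genotypes, while within the enhancer YAP, Myc and RNA polymerase II are called at 1 site only, just left of the centre.

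The next YAP regions by rank were chr5:37051708-37062573 and chr7:73510287-73523487 for tet-YAP, with fold enrichments of 33.1 and 30.5. The first of these also held Myc peaks on its TEAD site, with fold enrichments of 16.3 in tet-YAP, 9.55 in tet-Myc/YAP and 27 in wild-type, and polymerase in all 4 genotypes. Its 3 tet-YAP YAP peaks and 3 wild-type Myc peaks overlapped in pairs, with ends as close as 37052215 to 37052296 against 37052216 to 37052295. The lists involved are the 2 with fragment sizes of 56 and 51 bp, and whether these peaks are an artefact was not tested. The region had no YAP in tet-Myc/YAP, and H3K27ac covered 25.3% of it in wild-type. The chromosome 7 region had no Myc and no polymerase in any list. For tet-Myc/YAP the next were chr16:34853838-34865059 and chr18:46290522-46293503, with YAP fold enrichments of 12.9 and 13.0 and Myc peaks of 6.73 and 5.60 in the same livers. Their TEAD fold enrichments in tet-Myc/YAP were 44.7 and 54.3, against 16.9 and 21.3 in wild-type. The third member by wild-type TEAD, chr1:135587735-135594771, held 2 TEAD sites. At the first the TEAD fold enrichment was 58.0 in tet-Myc, 31.6 in tet-YAP, 86.5 in tet-Myc/YAP and 33.6 in wild-type. At the second it was 31.2 in tet-Myc, 44.6 in tet-YAP, 91.8 in tet-Myc/YAP and 17.3 in wild-type. YAP was called at the first site in both kinds of YAP liver (7.69 in tet-Myc/YAP), and at the second in tet-YAP alone (13.0), where Myc was called in tet-Myc/YAP (12.3).

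The members with the strongest Myc in tet-Myc/YAP after the chromosome 11 site were chr11:8380464-8389539 (25.3) and chr14:70079588-70092855 (16.8). At chr11:8380464-8389539 all factors were called on 1 TEAD site, with Myc in tet-YAP (6.31), YAP in tet-Myc/YAP (8.31) and TEAD at 42.3 in tet-Myc/YAP, against 7.72 in wild-type. At the chromosome 14 region Myc lay on more than 1 site. The Myc peak with the value above, at 70090350 to 70091012, lay within a long tet-Myc/YAP TEAD peak (70090201 to 70092940) with a fold enrichment of 46.3 and no YAP. The wild-type TEAD peak within the same stretch (4.91) lay apart from that Myc peak, at 70092143 to 70092612. The other wild-type TEAD site had 29.1 in tet-Myc/YAP, against 7.01 in wild-type, and there Myc was called in tet-YAP (5.91) and, at 16.9, in tet-Myc/YAP, whose livers also had YAP there (7.69).

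In wild-type liver the polymerase peak with the highest −log10 q that touched a member was at chr8:112525365-112529288, 1603 bp from an H3K4me3 region. This peak, with a fold enrichment of 63.2, was 11892 bp long and shared only its last 331 bp with the member, and its summit lay outside. The tet-YAP peak of 50.5 likewise had 239 bp inside, so neither value measures the enhancer itself. No polymerase peak touched it in tet-Myc or tet-Myc/YAP. At chr17:31978226-31982307 the polymerase fold enrichment was 14.1 in tet-Myc, 29.6 in tet-YAP, 23.5 in tet-Myc/YAP and 22.3 in wild-type, where from 23.9% to 37.5% of the peaks of the last 3 lists lay inside the member, their summits included. At chr5:66605626-66608668, where TEAD was called in wild-type alone, tet-Myc gave 11.2, tet-YAP 9.71 and wild-type 17.3, with no peak in tet-Myc/YAP.

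The widest members, chrX:74811748-74880373, chr9:56166715-56232595 and chr7:109492040-109545716, spanned 68626, 65881 and 53677 bp. H3K27ac covered 7.49%, 34.3% and 19.1% of them in wild-type, so the mark lay on the lesser part of their length. All kept TEAD in every genotype and none had YAP. The members with the strongest wild-type TEAD among those with no TEAD in any transgenic liver were chr4:155017241-155021686, chr16:52248833-52252064 and chr17:63664297-63674480. The last of them had H3K27ac over 16.5% of its length in wild-type and over none in the transgenic livers, whereas chr16:52248833-52252064 was wholly covered in all 4 genotypes and had a Myc peak of 8.32 in tet-Myc/YAP.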

How the data were processed

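ChIP-seq peak lists of 23 of 24 liver samples were used, and the sample titled as input was not analysed here. Groups came from the titles and genotype labels. Reads had been aligned to mm9 with BWA 0.6.2 and SAMtools, and peaks called with MACS2 2.0.9 for each library (submitters' processing notes), at a p-value cutoff of 1.00e-05 for the narrow lists per the file headers. The 14 narrow lists as deposited by the authors give the pileup signal at the summit, fold enrichment over control as a ratio, and −log10 p and −log10 q. For the 9 broad lists the authors deposited a score whose scale the sources used here do not give, and which served only to rank regions within a list. YAP chromatin had a protein crosslinker added to formaldehyde, per the labels.

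Overlap of at least 1 bp was computed in Python 3.11.15 (pandas 2.3.3, numpy 2.4.6), was tested on simulated data, and gave the counts of bedtools 2.31.1 for all 23 lists. Wilson intervals were checked against scipy 1.17.1, and figures were drawn with matplotlib 3.10.9. Fold enrichment was compared within a list or shown side by side. Equal-width differences weight 4 width classes, set by the quartiles of the members, to the members. Alternatives were a −log10 q of at least 10, the summit inside the region, 50% cover by H3K27ac, no H3K4me3 in any genotype, no Myc peak within 1 kb, lists of equal length, the middle width class and the wild-type TEAD peak as the unit. The regions named were the top 3 members by −log10 q for wild-type TEAD, YAP of each list, Myc of tet-Myc/YAP and wild-type polymerase, the 3 widest, and the top 3 by wild-type TEAD among those with no TEAD in a transgenic liver. Within them, overlapping TEAD peaks of the 4 genotypes were taken as 1 site. The members and lists were chosen with earlier results of these data known. Genes and sequences were not assigned, since the reference at hand was of another build.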

Additional observations from a re-analysis of the deposited data

How the results depend on the processing

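Of 218 values recomputed under an alternative, 168 stayed within the counting interval of the reported value (for the number of members, within a factor of 1.5), 50 moved outside it, and none reversed a difference whose interval excluded 0. The tally includes values fixed by construction, so it does not measure robustness. Among those that stayed are all 29 without a Myc peak within 1 kb, and the shortest list of each antibody at equal length. Among those that moved are 3 shares of H3K4me3 set to 0 by excluding that mark. The number of members ranged from 1075 to 1178 under the alternatives that change the rule. The cutoff at a −log10 q of 10 also applied to the TEAD and Myc lists of the rule. The 408 members with weaker wild-type TEAD then left the set, and some of the 433 TEAD and Myc enhancers with weaker Myc entered it. Shares and differences at this cutoff are therefore not those of the same regions.

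At a −log10 q of at least 10, the shares of members were 83.5% for TEAD in tet-Myc/YAP, 1.21% for YAP in tet-YAP, 7.81% for YAP in tet-Myc/YAP, 7.63% for wild-type polymerase and, for H3K27ac, 81.0% in tet-Myc, 84.3% in tet-YAP, 74.5% in tet-Myc/YAP, and the differences from TEAD and Myc enhancers were −13.7 points for YAP in tet-Myc/YAP, −8.86 for wild-type polymerase and −12.2 for TEAD in tet-Myc/YAP. In lists of equal length the shares were 65.4% and 60.6% for TEAD in tet-Myc and tet-Myc/YAP, 1.36% for YAP and 0.170% for Myc in tet-Myc/YAP, and 62.4%, 72.2% and 52.0% for H3K27ac (Myc, YAP and both transgenes, in this order), and the differences −0.918 points for YAP, −24.5 for TEAD and −8.90 for Myc in tet-Myc/YAP, and −29.6, −13.4 and −29.1 for H3K27ac in the same order. Myc in tet-YAP moved to 1.49% at the stricter q and to 0.340% at equal length. The H3K27ac lists and all differences at equal length were chosen after seeing the data. Members of the middle width class gave 82.4% for TEAD and 23.0% for Myc in tet-Myc/YAP, 2.30% for YAP in tet-YAP and 80.4% for H3K27ac in tet-Myc. The difference in wild-type polymerase was −9.46 points at equal width. For YAP in tet-Myc/YAP it was −18.0 points per wild-type TEAD peak, and −22.8 at equal TEAD enrichment, an alternative chosen after seeing the data. Beyond the construction of each alternative, the cause was not tested.

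No paired analysis was possible because each antibody and genotype had 1 library and the labels give no replicate numbers. Replicates could not be left out for the same reason. The YAP list of tet-YAP, with 1328 peaks, left 40 members, which limits every comparison of YAP in those livers. No member had a Myc peak of tet-Myc within 1 kb, so that alternative changed nothing.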
